A study of Mus musculus with 2 samples.

Results

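The genes described here are 9 genes of alcohol, aldehyde and retinoid metabolism in mouse liver: *Adh1*, *Adh4*, *Aldh1a1*, *Aldh1a7*, *Aldh2*, *Rdh16*, *Lrat*, *Rarb* and *Rara*. They were chosen by symbol from the 45777 gene symbols of the transcript table, and for each of them the counts of all its transcripts were added up in each library. Livers came from C57BL/6 N mice that carried no engineered allele and that started a high-fat diet (HFD) at 7 weeks of age. The mice received an adeno-associated virus (AAV) after 13 weeks of the diet, which lasted 18 weeks in all. One group received AAV-GFP, which expresses green fluorescent protein and is the control, and the other received AAV-Wee1-AS, which expresses the long noncoding RNA *Wee1-AS*. Both groups shared the strain, the diet and the infection with a virus. The AAV-Wee1-AS vector carries the CMV promoter, which is active in many cell types, so its expression is not limited to hepatocytes. The comparison addresses which liver RNAs differ when *Wee1-AS* is overexpressed under an HFD.

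Poly-A RNA was sequenced, and 1 library per group was analysed. According to the design text, 4 livers were sequenced. The labels do not state whether RNA of several mice was pooled or the sex of the mice. With 1 library per group there is no spread between animals, no test and no p-value, so each value below describes these 2 libraries. The estimated counts summed to 55466182 with AAV-GFP and to 48079335 with AAV-Wee1-AS. Of all symbols, 15857 reached 10 counts in either library, and all 9 genes were among them. Ratios are AAV-Wee1-AS to AAV-GFP on the log2 scale after scaling of the libraries, and the interval behind each is an exact 95% interval for counting error only. Since PCR copies molecules, reads are not independent and the true error is wider. The hepatocyte genes *Alb* and *Apoa1* were at 37459 and 16330 TPM with AAV-GFP and at 53289 and 13403 TPM with AAV-Wee1-AS, among the most abundant RNAs, as the tissue label says. TPM is the deposited level per transcript length, with every library brought to one common sum. In bulk RNA, fewer cells of a type and less RNA per cell cannot be told apart.

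The liver is the main site of alcohol oxidation and the main store of vitamin A. Alcohol dehydrogenases turn ethanol and retinol into aldehydes, and aldehyde dehydrogenases turn those aldehydes into acids, among them retinoic acid. Retinol dehydrogenases of the short-chain family carry out the same first step on retinol, and lecithin retinol acyltransferase instead esterifies retinol for storage, in the liver chiefly in stellate cells. Retinoic acid binds the retinoic acid receptors, which pair with retinoid X receptors on direct repeats of a short half-site in the DNA of target genes.

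The 9 genes spanned more than 3 orders of magnitude in level, from *Adh1*, a leading alcohol-oxidising enzyme of liver, to *Rarb*, a receptor gene. *Adh1* was at 3314 TPM with AAV-GFP (95% counting interval 3298 to 3331) and at 2681 TPM with AAV-Wee1-AS (2664 to 2697). It ranked 43 and 67 among all genes by TPM. *Aldh1a1*, which oxidises retinal to retinoic acid, was at 1242 and 1404 TPM. *Aldh2*, the mitochondrial enzyme that clears acetaldehyde, was at 1229 and 1098 TPM. Those 3 enzymes made up 95.5% of the summed TPM of the 9 genes with AAV-GFP and 92.9% with AAV-Wee1-AS.

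*Aldh1a7*, a close relative of *Aldh1a1*, stood at 112 TPM with AAV-GFP and 186 TPM with AAV-Wee1-AS. *Adh4*, an alcohol dehydrogenase that also acts on retinol, stood at 74.4 and 128 TPM. *Rdh16*, a short-chain retinol dehydrogenase, was at 72.4 and 68.2 TPM. The receptor and storage genes were far below the enzymes. *Rara*, the retinoic acid receptor alpha gene, was at 12.7 TPM with AAV-GFP and 10.3 TPM with AAV-Wee1-AS. *Lrat*, the retinol esterifying enzyme, was at 1.51 TPM (1.34 to 1.71) and 4.13 TPM (3.81 to 4.47). *Rarb*, the retinoic acid receptor beta gene and itself a classical retinoic acid target, was at 0.734 TPM (0.577 to 0.920) and 1.15 TPM (0.927 to 1.40).

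The order of the 9 levels was the same in both libraries. In the AAV-GFP library the counting intervals of the neighbours *Aldh1a1* and *Aldh2* overlapped, as did those of *Adh4* and *Rdh16*, and the other neighbours were apart. No neighbours overlapped in the AAV-Wee1-AS library. The 9 genes held 0.748% of all counts with AAV-GFP and 0.685% with AAV-Wee1-AS, and their summed TPM was 6060 and 5579.

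**Figure D1:**
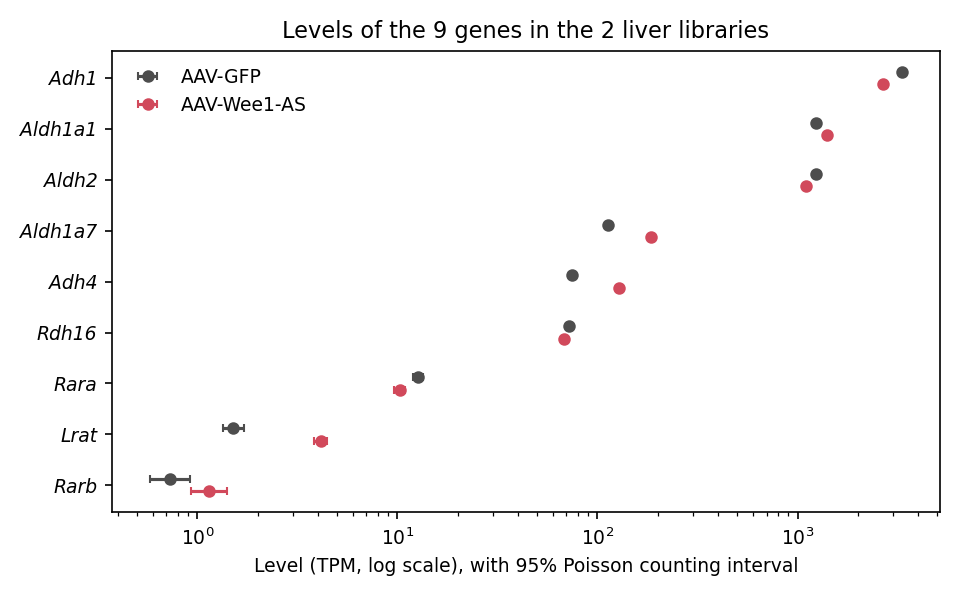
Level of each of the 9 genes in TPM (log axis) with AAV-GFP and with AAV-Wee1-AS, 1 library per group, with bars for the 95% counting interval. *Adh1*, *Aldh1a1* and *Aldh2* lie between 1098 and 3314 TPM in both libraries, whereas *Lrat* and *Rarb* lie between 0.734 and 4.13 TPM.

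Between the libraries, *Lrat*, *Adh4*, *Aldh1a7*, *Rarb* and *Aldh1a1* were higher with AAV-Wee1-AS beyond counting error, and *Adh1*, *Rara* and *Aldh2* were lower, though 4 of these signs changed once trends with GC content and length were removed, as given further on. The interval of *Rdh16* spanned 0. Thus 5 of the 9 genes lay above 0 and 3 below 0 beyond counting error, where 39.6% and 37.4% of all genes did. Only *Lrat* passed 2-fold, so 1 of 9 (11.1%) did, against a background of 31.0% of all genes (22.5% higher and 8.43% lower). *Lrat* was also the only one of the 9 with an interval wholly past 2-fold, which held for 19.9% of all genes (16.3% higher). The median log2 ratio was 0.21 over the 9 genes and -0.002 over all genes, and the middle 95% of all genes ran from -1.81 to 2.53. The share past 2-fold among the 9 genes was thus under that of all genes.

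**Figure D2:**
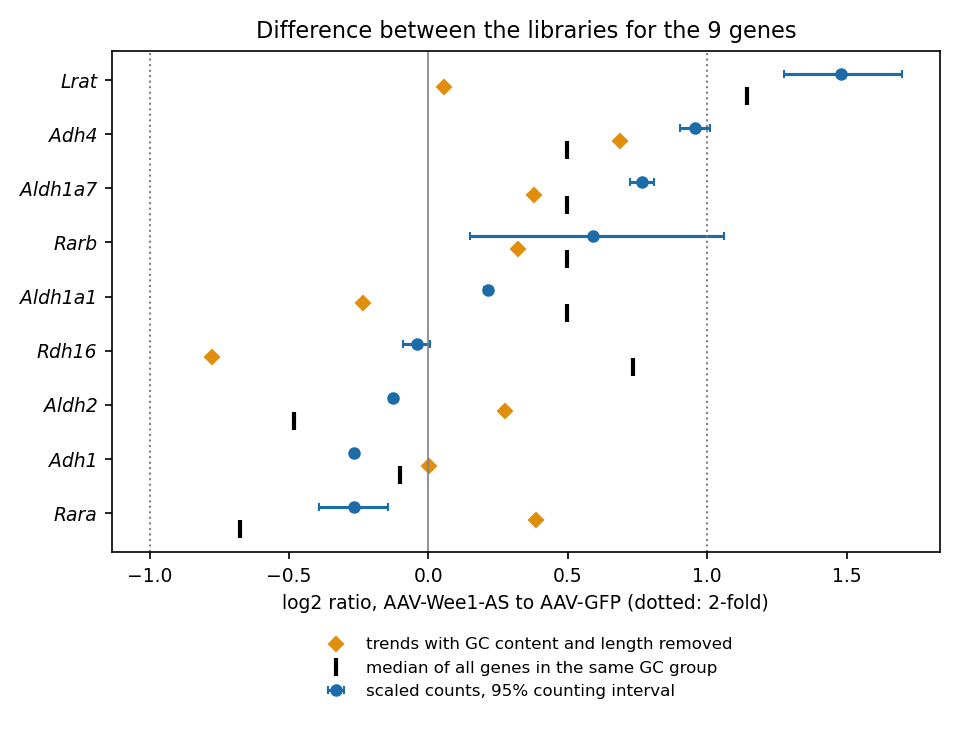
Log2 ratio between the libraries, above 0 where AAV-Wee1-AS is higher, for each of the 9 genes from scaled counts (circles with 95% counting intervals), the same ratio after removal of the trends that all genes show with GC content and length (diamonds), and the median of all genes of like GC content (vertical ticks). *Lrat* alone lies past the dotted 2-fold line as scaled counts, and none of the 9 does once the trends are removed.

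Both alcohol dehydrogenases sit in one cluster on chromosome 3, and their ratios had opposite signs as scaled counts, but not with the trends of GC content and length removed (0.0029 for *Adh1* and 0.69 for *Adh4*). *Adh1* (gene ID 11522, chr3:138277585-138290698, mm10) had 152922 counts with AAV-GFP and 104821 with AAV-Wee1-AS. Its log2 ratio was -0.27 (-0.28 to -0.26), which is a 1.20-fold lower value. *Adh4* (gene ID 26876, chr3:138415456-138432683) had 4637 and 7414 counts, a log2 ratio of 0.95 (0.90 to 1.01) and 1.94-fold higher, just under the 2-fold limit. The TPM of *Adh1* was 44.6 times that of *Adh4* with AAV-GFP and 21.0 times with AAV-Wee1-AS.

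*Adh4* has 2 annotated transcripts, and both were higher with AAV-Wee1-AS. The longer of 3180 bases had 2421 and 4663 counts, and the shorter of 1312 bases had 2216 and 2751. The longer form held 52.2% of the *Adh4* counts with AAV-GFP (50.8 to 53.7) and 62.9% with AAV-Wee1-AS (61.8 to 64.0), so the shares moved apart beyond counting error. By TPM, which is scaled for length, the shorter form held most of the gene, 68.9% with AAV-GFP and 58.8% with AAV-Wee1-AS. The log2 ratios of the longer and the shorter form were 1.22 and 0.59. Counts of overlapping transcripts are the program's estimate of how shared reads divide, and that division adds an error the intervals do not hold.

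The cluster spans chr3:138198064-138455499 and holds 7 symbols of the family. *Adh5*, the glutathione-dependent formaldehyde dehydrogenase that every cell type uses, had 14666 counts with AAV-GFP and 15590 with AAV-Wee1-AS, a log2 ratio of 0.37 (0.33 to 0.40). *Adh7*, known for retinol oxidation in stomach, had 46 and 50 counts, and its interval spanned 0 (-0.21 to 1.01). The pseudogene *Adh6-ps1*, which lies between *Adh1* and *Adh4*, had 380 and 640 counts and a log2 ratio of 1.03 (0.84 to 1.22), which was 0.28 and no longer past 2-fold with the trends removed. *Adh6a* had 0 counts in both libraries, and *Adh6b* had 0 and 4. *Adh1* was thus the only gene of the cluster that passed the count filter and had a ratio below 0, while with the trends removed *Adh5* (-0.05) and *Adh7* (-0.78) were below 0 and *Adh1* was not.

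The aldehyde dehydrogenases *Aldh1a1* and *Aldh1a7* are neighbours on opposite strands of chromosome 19, with their 3′ ends toward each other. *Aldh1a1* (gene ID 11668, chr19:20492583-20643463) had 84127 counts with AAV-GFP and 80469 with AAV-Wee1-AS, a log2 ratio of 0.21 (0.20 to 0.23). *Aldh1a7* (gene ID 26358, chr19:20692953-20727556) had 7622 and 10697 counts and a log2 ratio of 0.77 (0.72 to 0.81), that is 1.70-fold higher. The TPM of *Aldh1a1* was 11.1 times that of *Aldh1a7* with AAV-GFP and 7.55 times with AAV-Wee1-AS. The genes are close paralogs, so reads that match both could be divided between them in a way the counts do not show.

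Promoter sequences of 300 bases (250 before and 50 from the start of the transcript on) were given by RefSeq on GRCm38.p6 for 8 of the 9 genes, all but *Aldh2*. Some genes with several starts had several windows, but not every annotated start had one. The promoters of the neighbours *Aldh1a1* (chr19:20601718-20602017, plus strand) and *Aldh1a7* (chr19:20727507-20727806, minus strand) are shown because they show how alike the 2 genes are at their starts. Capitals mark a run of 65 bases that is identical in both, at positions 157 to 221 of each window counted from its 5′ end.
Aldh1a1: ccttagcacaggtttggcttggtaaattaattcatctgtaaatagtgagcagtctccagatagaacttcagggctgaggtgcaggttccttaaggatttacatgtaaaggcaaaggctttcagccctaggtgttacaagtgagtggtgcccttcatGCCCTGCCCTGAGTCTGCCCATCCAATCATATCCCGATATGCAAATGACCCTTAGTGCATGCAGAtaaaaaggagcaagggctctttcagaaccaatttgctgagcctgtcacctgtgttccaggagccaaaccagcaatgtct
Aldh1a7: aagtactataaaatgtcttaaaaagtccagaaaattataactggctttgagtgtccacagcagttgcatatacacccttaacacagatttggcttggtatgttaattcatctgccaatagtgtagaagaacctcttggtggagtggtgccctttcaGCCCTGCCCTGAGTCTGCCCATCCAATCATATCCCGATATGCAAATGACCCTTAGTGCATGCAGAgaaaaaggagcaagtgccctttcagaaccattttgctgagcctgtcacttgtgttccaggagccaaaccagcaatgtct
Over the last 100 bases of the windows 95 positions were identical, and over all 300 positions 177 were. Beside this likeness at the start, the log2 ratio was 0.21 for *Aldh1a1* and 0.77 for *Aldh1a7*.

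*Aldh1a1* RNA came almost wholly from this start. The transcript that begins at position 20601968 held 97.6% of the *Aldh1a1* counts with AAV-GFP and 98.3% with AAV-Wee1-AS. The 4 transcripts from a start further upstream, at position 20492583, had 2030 and 1395 counts together, a log2 ratio of -0.26 (-0.36 to -0.16). That of the whole gene was 0.21 as scaled counts and -0.23 with the trends of GC content and length removed. A noncoding gene that overlaps *Aldh1a1*, *C730002L08Rik*, had 10 and 38 counts.

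*Aldh2* (gene ID 11669, chr5:121566027-121593824) had 156484 counts with AAV-GFP and 118310 with AAV-Wee1-AS. Its log2 ratio was -0.13 (-0.14 to -0.11), a value 1.09-fold lower. With so many counts the interval is narrow, but it holds no spread between animals. The minor transcript of *Aldh2* of 2043 bases had 112 and 174 counts, under 0.2% of the gene in each library.

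*Rdh16* (gene ID 19683, chr10:127801090-127815846) had 7558 counts with AAV-GFP and 6054 with AAV-Wee1-AS, and its log2 ratio was -0.04 (-0.09 to 0.0066). As scaled counts it was the only one of the 9 genes without a difference beyond counting error, but with the trends of GC content and length removed it was at -0.78, the farthest from 0 of the 9. Its RefSeq promoter window is that of the start at position 127801153. The transcript from there held 97.8% of the *Rdh16* counts with AAV-GFP and 98.5% with AAV-Wee1-AS. The window holds the letters TATAAA from 82 to 77 bases before that start, which 13.6% of the 32851 promoters in the table also hold on one strand or the other. The window of *Aldh1a7* holds them from 244 to 239 bases before its start. *Rdh16* lies in a cluster of 7 related genes on chromosome 10 whose sequences are alike, so reads could be shared among them. *Rdh7*, the most abundant gene of that cluster, had 63260 and 50475 counts and a log2 ratio of -0.05 (-0.06 to -0.03). *Rdh9* had 4558 and 3688 counts (-0.03), and *Rdh16f2* had 3943 and 3700 (0.19). *Rdh1* had 425 and 181 counts and a log2 ratio of -0.95 (-1.21 to -0.70), which was -1.36 with the trends of GC content and length removed. *Rdh19* had 202 and 119 counts and a log2 ratio of -0.48 (-0.82 to -0.15). With those trends removed, *Rdh7* was at 0.09, *Rdh9* at -0.15, *Rdh16f2* at 0.61 and *Rdh19* at -0.48, so the sign of *Rdh7* turned. *Hsd17b6*, at the edge of the cluster and known for work on both retinoids and androgens, had 16810 and 5961 counts and a log2 ratio of -1.22 (-1.26 to -1.18), past 2-fold lower.

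*Lrat* (gene ID 79235, chr3:82892582-82903974) had 267 counts with AAV-GFP and 617 with AAV-Wee1-AS. The ratio was 2.79-fold (2.42 to 3.25), or 1.48 on the log2 scale (1.28 to 1.70). It was under 2-fold on FPKM with a pseudocount of 1 (log2 ratio 0.79) and with the trends of GC content and length removed (0.06). *Lrat* is a defining gene of hepatic stellate cells, the vitamin A storing cells of the liver. Of the other 14 stellate cell markers on the list, *Hgf* (118 and 285 counts, log2 ratio 1.53) and *Rgs5* (540 and 1351 counts, 1.60) were also past 2-fold higher. *Pdgfrb* (1129 and 441 counts, -1.08), *Ngfr* (542 and 165, -1.43) and *Cygb* (1232 and 430, -1.24) were past 2-fold lower. The median of the 14 markers was -0.53, their summed level was 405 TPM with AAV-GFP and 321 TPM with AAV-Wee1-AS, and none was at 0. Thus 2 of 14 were past 2-fold higher and 3 of 14 lower, where 22.5% and 8.43% of all genes were. With the trends of GC content and length removed, none of these 5 was past 2-fold: *Hgf* was at 0.24, *Rgs5* at 0.28, *Pdgfrb* at -0.89, *Ngfr* at -0.80 and *Cygb* at -0.50. The median of the 14 was then 0.01, and 1 of them, *Dcn* (-1.17), was past 2-fold lower.

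Markers of activated stellate cells, which make scar matrix and lose their retinoid stores, lay lower with AAV-Wee1-AS. All 7 had a ratio below 0, and 6 were past 2-fold lower, against 8.43% of all genes. *Col1a1* had 3620 counts with AAV-GFP and 603 with AAV-Wee1-AS (log2 ratio -2.30), *Col3a1* had 9104 and 1858 (-2.01), and *Acta2* had 331 and 82 (-1.71). The median of the 7 was -2.01, and their summed level was 123 TPM with AAV-GFP and 27.4 TPM with AAV-Wee1-AS. With the trends removed all 7 were past 2-fold lower, with a median of -1.89. None was at 0, and the part of stellate cells in the *Lrat* value was not tested.

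*Rarb* and *Rara* code for receptors of retinoic acid. *Rarb* (gene ID 218772, chr14:16430839-17082331) had only 75 counts with AAV-GFP and 94 with AAV-Wee1-AS. The log2 ratio was 0.59, with a wide interval (0.15 to 1.06), and no firm size can be read at this depth. *Rara* (gene ID 19401, chr11:98927800-98974942) had 1346 and 922 counts and a log2 ratio of -0.27 (-0.39 to -0.15), a value 1.20-fold lower.

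The *Rarb* transcripts start at either of 2 places that lie 506855 bases apart. Those from the downstream start, at position 16575476 on the minus strand, had 42 counts with AAV-GFP and 91 with AAV-Wee1-AS, a log2 ratio of 1.39 (0.85 to 1.96). They held 56.0% of the *Rarb* counts with AAV-GFP (44.1 to 67.5) and 96.8% with AAV-Wee1-AS (91.0 to 99.3). Those from the upstream start, at position 17082331, had 33 and 3 counts. No ratio is given for that start, since 3 counts is the floor set here for a library. The estimated counts of the starts thus differed in opposite directions, although the counts are few, one is at the floor and their division among transcripts is estimated. Of the transcripts at the downstream start, one had 42 and 60 counts and the other had 0 and 31.

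The RefSeq promoter of the downstream start (chr14:16575427-16575726, minus strand, GRCm38.p6) is shown because a retinoic acid response element at this start is what *Rarb* is known for. Direct repeats of a half-site were searched on both strands as GTTCA or GGTCA, then any 6 bases, then again GTTCA or GGTCA. These are the last 5 bases of half-sites of 6 that are spaced by 5. Capitals mark the match.
Rarb: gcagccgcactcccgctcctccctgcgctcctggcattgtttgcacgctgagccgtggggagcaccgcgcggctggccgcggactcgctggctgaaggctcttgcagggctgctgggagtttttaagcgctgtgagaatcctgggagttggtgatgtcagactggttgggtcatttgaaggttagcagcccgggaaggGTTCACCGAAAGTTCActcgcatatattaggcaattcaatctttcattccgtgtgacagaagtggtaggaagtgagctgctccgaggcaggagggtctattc
The match, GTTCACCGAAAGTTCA, lies from 52 to 37 bases before the start, at chr14:16575513-16575528. Such a repeat is in 81 of the 32851 promoters of the table (0.247%), and among the windows given for the 8 genes it was found in that of *Rarb* alone. The repeats with a spacing of 2 (the same letters with any 3 bases between), which 0.399% of promoters hold, were in none of the windows given. No window was given for the *Rarb* start at position 17082331, which was thus not searched. The same holds for the *Rara* start at position 98960471, whose transcript held 44.1% of the *Rara* counts with AAV-GFP and 55.1% with AAV-Wee1-AS. These letters are a description of the windows and say nothing of binding in these livers.

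*Rara* has 11 annotated transcripts, of which 2 held nearly all counts. The one that starts at position 98937696 had 722 counts with AAV-GFP and 408 with AAV-Wee1-AS, a log2 ratio of -0.55 (-0.72 to -0.37). The one that starts at position 98960471 had 594 and 508 counts, and its interval spanned 0 (-0.12 to 0.23). The share of the first was 53.6% with AAV-GFP (50.9 to 56.3) and 44.3% with AAV-Wee1-AS (41.0 to 47.5). With the trends of GC content and length removed, the log2 ratio of *Rara* as a whole was 0.39, so its direction depends on that step.

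**Figure D3:**
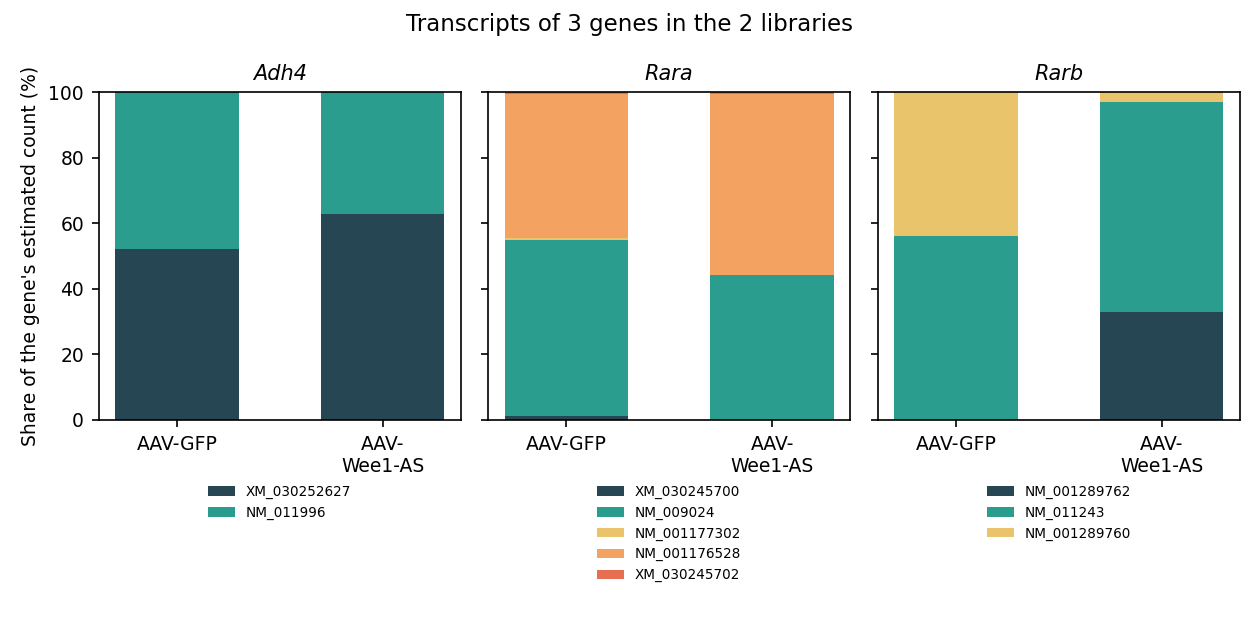
Share of the estimated counts of each gene, in percent, held by its transcripts in the AAV-GFP and the AAV-Wee1-AS library, for *Adh4*, *Rara* and *Rarb*, with a colour per RefSeq transcript. The *Rarb* transcripts of the downstream start (dark and green) go from 56.0% to 96.8% of the gene, and the longer *Adh4* transcript goes from 52.2% to 62.9%. *Rarb* had only 75 counts with AAV-GFP and 94 with AAV-Wee1-AS, and the division of counts among transcripts is estimated.

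The ratios of the 9 genes moved with their GC content. Over all genes with a known GC content, the median log2 ratio was 1.44 in the tenth of genes with the lowest GC content and -0.68 in the tenth with the highest. *Lrat*, with 42.0% GC, lies in a group of genes (41.6% to 44.0%) whose median was 1.14 and of which 56.4% were past 2-fold higher. *Rara*, with 59.2% GC, lies in the highest group, where 19.9% were past 2-fold lower. Across the 9 genes, Spearman's rho of the ratio with GC content was -0.70, given as a description over 9 genes of the same 2 libraries. Relative to the median of genes of like GC content, 6 of the 9 were higher and 3 were lower.

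With the trends of GC content and transcript length removed, the log2 ratio of *Lrat* was 0.06 and none of the 9 genes was past 2-fold, against 15.9% of all genes (7.42% higher and 8.52% lower). *Adh4* was then at 0.69, *Rara* at 0.39, *Aldh1a7* at 0.38, *Rarb* at 0.32 and *Aldh2* at 0.27. *Adh1* was at 0.0029, *Aldh1a1* at -0.23 and *Rdh16* at -0.78. For *Adh4* the removal used the GC content and length of a transcript of 1314 bases. The form of 3180 bases held most of the *Adh4* counts, though not most of its TPM. The sign of 4 genes, *Adh1*, *Aldh1a1*, *Aldh2* and *Rara*, thus changed with the removal, while *Adh4*, *Aldh1a7*, *Rarb* and *Lrat* stayed above 0 and *Rdh16* stayed below. The part of base composition in these ratios was not tested, since the trend and the virus differ between the same 2 libraries and cannot be told apart.

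**Figure D4:**
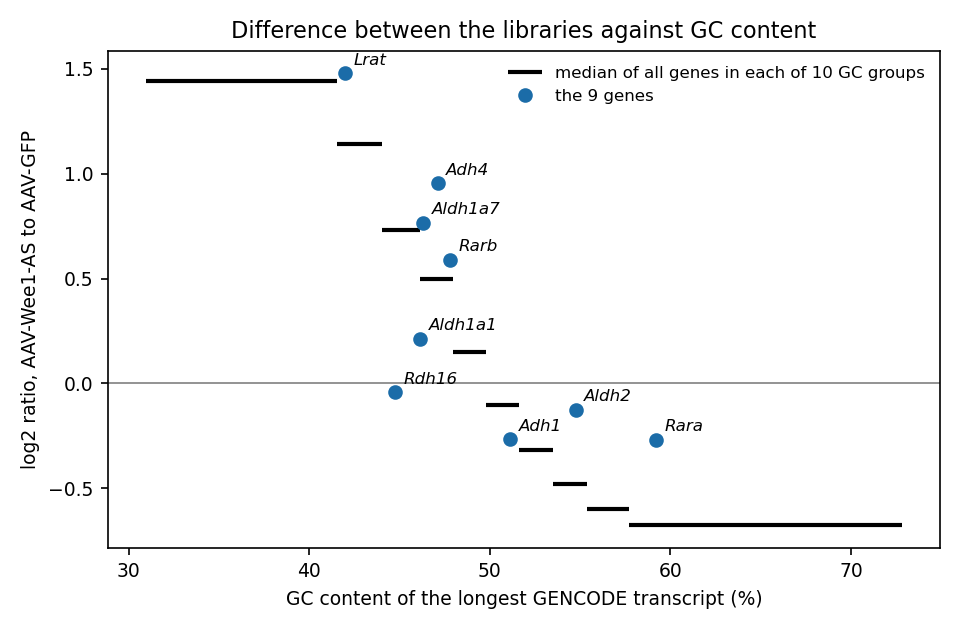
Log2 ratio between the libraries (above 0 where AAV-Wee1-AS is higher) against the GC content in percent of the gene's longest transcript, with the median of all genes in each of 10 GC groups and the 9 genes marked. The median falls from 1.44 in the lowest group to -0.68 in the highest, and *Lrat* lies above and *Rdh16* below the median of its group.

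The wider retinoid pathway was followed in a list of 59 other genes, of which 58 were in the table and 48 passed the count filter. Of these 48, 2 (4.17%) were past 2-fold higher and 6 (12.5%) past 2-fold lower, where 22.5% and 8.43% of all genes were. The median was -0.21 against -0.002 for all genes, with 17 genes above and 31 below 0. The genes past 2-fold higher were *Ncor1*, a corepressor of nuclear receptors (1432 and 3782 counts, log2 ratio 1.68, 1.59 to 1.77), and *Ncoa1*, a coactivator (497 and 869 counts, 1.08, 0.92 to 1.25). With the trends removed they were at 0.83 and 0.37.

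The genes past 2-fold lower came from several roles. *Tgm2*, a transglutaminase induced by retinoic acid, had 22038 counts with AAV-GFP and 7633 with AAV-Wee1-AS (log2 ratio -1.25, -1.29 to -1.21). *Rxrg*, a retinoid X receptor, had 551 and 209 counts (-1.11, -1.36 to -0.89). *Fabp5*, a fatty acid binding protein that also carries retinoic acid, had 443 and 181 (-1.01, -1.27 to -0.76). *Pnpla3*, a lipase of retinyl esters and triglycerides, had 137 and 50 counts (-1.15, -1.67 to -0.70). The counting intervals of *Rxrg*, *Fabp5* and *Pnpla3* thus reached within 2-fold. *Aldh1a2*, which makes retinoic acid in development, had 13 counts with AAV-GFP and 0 with AAV-Wee1-AS, at least 3.57-fold lower against a floor of 3 counts in the library. That bound takes the 13 counts as exact, and the counting interval of the log2 ratio reached up to -1.33, a smaller difference. *Hsd17b6* is described above. With *Aldh1a2* at that bound the median of the list stayed at -0.21. With the trends of GC content and length removed, *Hsd17b6* (-1.20), *Fabp5* (-1.12) and *Aldh1a2*, whose fitted value depends on the prior count, remained past 2-fold lower, while *Tgm2* (-0.68), *Rxrg* (-0.54) and *Pnpla3* (-0.38) did not. *Fabp5* and *Pnpla3* share one role, binding, uptake, storage and release, and most of the list lay within 2-fold, 40 of the 48.

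Among the most abundant genes of transport, aldehyde oxidation, retinoic acid breakdown and the receptors, the ratios were within 2-fold. For blood transport of retinol, *Ttr* had 536296 and 289753 counts (log2 ratio -0.61) and *Rbp4*, the retinol carrier made by the liver, had 168759 and 118240 (-0.24). The aldehyde dehydrogenases *Aldh3a2*, *Aldh9a1* and *Aldh8a1* stood at 0.07, -0.0043 and 0.22. *Hsd17b13*, a lipid droplet protein with retinol dehydrogenase activity, stood at 0.04. For breakdown of retinoic acid, *Cyp26a1* had 162 and 123 counts, with an interval that spanned 0 (-0.47 to 0.23), and *Cyp26b1* had 294 and 331 (0.45, 0.22 to 0.68). *Rxra*, the main retinoid X receptor of liver, had 37890 and 25323 counts (-0.30), and *Rxrb* had 2588 and 1245 (-0.78). With the trends of GC content and length removed, the sign turned for *Rbp4* (0.43), *Aldh3a2* (-0.10), *Aldh9a1* (0.20), *Hsd17b13* (-0.39), *Cyp26a1* (0.44) and *Rxra* (0.06). The others kept theirs, at -0.96 for *Ttr*, 0.19 for *Aldh8a1*, 0.88 for *Cyp26b1* and -0.0030 for *Rxrb*.

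Retinoic acid targets, a list of 9 genes that holds *Rarb* and *Lrat*, did not lie on one side. Of the 6 that passed the filter, *Lrat* was past 2-fold higher and *Tgm2* past 2-fold lower, beside 22.5% and 8.43% of all genes. With the trends removed neither was past 2-fold (0.06 for *Lrat* and -0.68 for *Tgm2*). *Dhrs3*, a retinal reductase, had 7538 and 4882 counts (-0.35, and 0.05 with the trends removed). The median of the 6 was -0.23. With the trends of GC content and length removed it was 0.05, and the median of the 48 pathway genes was -0.048, with none past 2-fold higher and 7 past 2-fold lower, beside 7.42% and 8.52% of all genes. Of those 7, *Rdh1*, *Dhrs9* (-1.58), *Stra6l* (-1.42) and *Lipa* (-1.33) were within 2-fold before the removal.

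**Figure D5:**
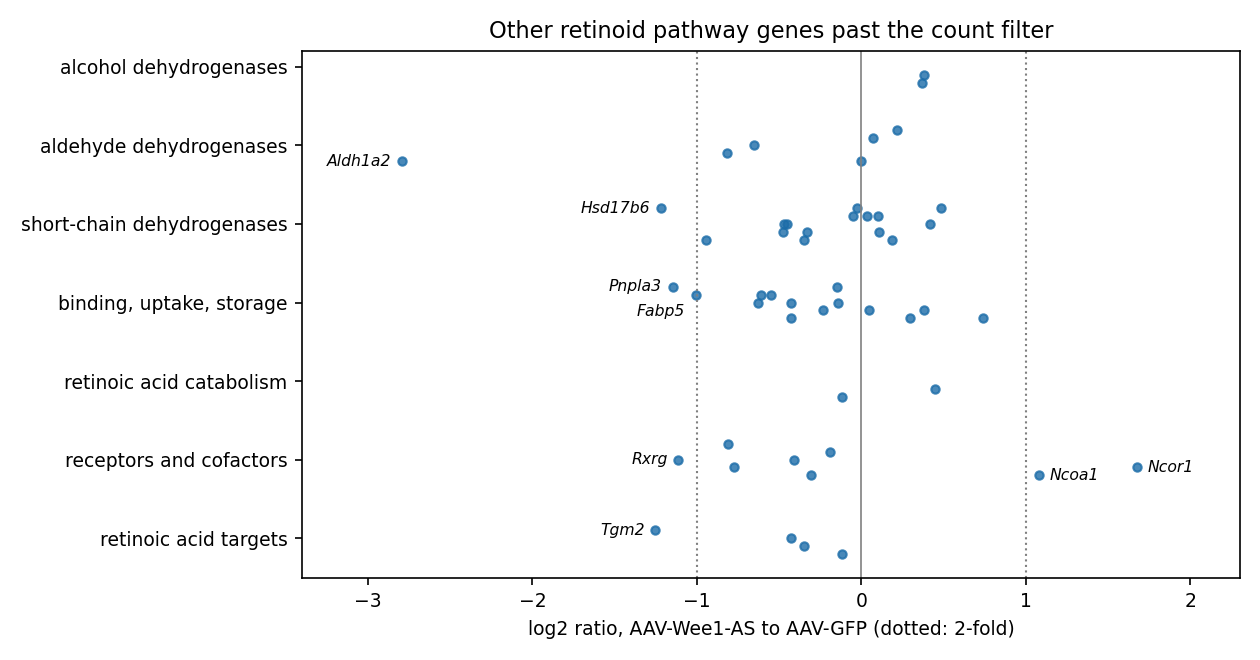
Log2 ratio between the libraries (above 0 where AAV-Wee1-AS is higher) of the 48 other retinoid pathway genes past the count filter, 1 point per gene, by role, with the genes past 2-fold named (retinoic acid targets that also belong to another role are shown in both). *Ncor1* and *Ncoa1* lie past the 2-fold line on the higher side and 6 genes on the lower side, where the position of *Aldh1a2* depends on the prior count because it had 0 counts with AAV-Wee1-AS.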

How the data were processed

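RNA of mouse liver was sequenced from paired ends after a stranded poly-A library kit, with 1 library per group (AAV-GFP, the control, and AAV-Wee1-AS). Per the labels' processing notes, the authors used Trimmomatic 0.38, HISAT2 2.1.0, SAMtools 1.9, StringTie 2.1.3b and the build mm10. The table deposited by the authors gives an estimated count, an FPKM and a TPM value for each of 129299 transcripts. The estimated counts deposited by the authors equal FPKM times length times a constant within 1% for 100.0% of transcripts with 1000 counts or more, so reads of overlapping transcripts were divided by estimate. FPKM and TPM values deposited by the authors are scaled for length and depth. Whether strand was used in counting is not given in the sources used here.

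Counts were summed per symbol, and genes that reached 10 counts in either library were kept. Libraries were scaled by TMM in edgeR 4.0.16 (R 4.3.3; factors 1.03 and 0.976), and log2 ratios took a prior count of 2. Past 2-fold means a ratio above 2 or below 0.5. Intervals of ratios and shares are exact Clopper-Pearson intervals at 95%, and those of TPM are exact Poisson intervals. Trends with GC content and length were removed by lowess in statsmodels 0.14.6, for the 14995 genes (94.6%) whose longest transcript in the GENCODE annotation of the same build gave a GC content. The ratio and interval script was tested on simulated counts. Alternatives were other scalings (DESeq2 1.42.0 among them), filters, prior counts, units, the most abundant transcript by counts and removal of those trends.

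The 9 genes, the pathway and marker lists and the limits were chosen with earlier results of these data known. Named were the 9 genes, list genes past 2-fold with at least 50 counts in a library, the 2 most abundant genes of each list and paralogs. Of 9 genes that overlap one of the 9, 5 were at 0 counts in both libraries. *C730002L08Rik* is described above, and *E030003E18Rik* (0 and 3 counts), *Gm18078* (6 and 3) and *Gm46442* (12 and 13) were not followed. *Aldh1a2*, which is under that count minimum, the genes past 2-fold only with the trends removed and the named markers were added after their values were seen. *Wee1-AS* itself was not analysed here.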

Additional observations from a re-analysis of the deposited data

How the results depend on the processing

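No paired analysis was possible because each group has 1 library. Over 12 alternatives, the log2 ratio of *Lrat* ran from 0.06 to 1.50, of *Adh4* from 0.69 to 1.25, of *Aldh1a7* from 0.38 to 0.79, of *Rarb* from 0.20 to 0.78 and of *Rdh16* from -0.78 to -0.0088, each with an unchanged sign. *Adh1* (-0.40 to 0.0029), *Aldh1a1* (-0.23 to 0.25), *Aldh2* (-0.26 to 0.27) and *Rara* (-0.52 to 0.39) changed sign with the trends of GC content and length removed and in none of the other 11 alternatives.

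With those trends removed, 0 of the 9 genes and 0 pathway genes were past 2-fold higher, and the pathway median was -0.048. With the transcript of most counts for each symbol, 2 of the 9 genes (*Lrat* and *Adh4*) were past 2-fold. In that setting 4 pathway genes were past 2-fold higher and the pathway median was -0.11. Of all 15782 genes, 3818 were then past 2-fold higher and 1969 lower. For *Adh4* the transcript of most counts is the longer form. The shorter form, which held most of the *Adh4* TPM, had a log2 ratio of 0.59 as scaled counts. Upper quartile scaling, which moved the median of all genes to -0.13, left 1 pathway gene past 2-fold higher and a median of -0.35, beside 3169 higher and 1759 lower of all 15857 genes. With FPKM and a pseudocount of 1, 0 of the 9 genes, 1 pathway gene higher and 2 lower were past 2-fold, and with TPM 1 higher and 3 lower. Both settings changed the unit and the scaling together with the pseudocount. Over all genes, 3572 were past 2-fold higher and 1337 lower, against 1113 and 1278 with the trends removed, 1029 and 307 with FPKM and 1608 and 438 with TPM. The cause of these shifts was not tested. Depth limits *Rarb* most, at 75 and 94 counts.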

Other observations

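Other cell types of the liver were followed by marker lists, with no marker at 0 in either library. Of all genes, 22.5% were past 2-fold higher and 8.43% lower, and 7.42% and 8.52% with the trends of GC content and length removed. Pericentral hepatocyte markers, 9 genes, had a median log2 ratio of 0.39, and 2 were past 2-fold higher. Periportal markers, also 9, had a median of -0.06, and 1 was past 2-fold higher. With the trends removed the order of these medians was the other way round, at 0.14 for the pericentral markers (1 past 2-fold higher) and 0.49 for the periportal ones (0 past 2-fold higher). The summed level was 10325 TPM with AAV-GFP and 11726 TPM with AAV-Wee1-AS for the pericentral and 7216 and 7212 TPM for the periportal markers. The 8 hepatocyte markers had a median of -0.02 and 1 past 2-fold higher, against 0.21 and 1 past 2-fold lower with the trends removed. Of 7 Kupffer cell and macrophage markers, *Vsig4*, *Timd4* and *Marco* were past 2-fold higher, and with the trends removed *Marco* alone was (2.22). *Cd68* (-0.86), *Cd5l* (-0.74) and *Clec4f* (-0.14) were below 0, so 4 of the 7 were above and 3 below, with a median of 0.11. The summed level of those 7 was 375 and 292 TPM. None of 7 sinusoidal endothelial markers (186 and 160 TPM) was past 2-fold in either form. None of 5 cholangiocyte markers (44.1 and 37.9 TPM) was past 2-fold as scaled counts, and 1, *Spp1* (-1.02), was past 2-fold lower with the trends removed. The part of these cell types in the values of the 9 genes was not tested.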
